A study of Mus musculus with 34 samples.

Results

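The imprinted growth regulator genes examined here were *Cdkn1c*, *Dlk1*, *Peg3*, *Peg10*, *Mest*, *Grb10*, *Plagl1*, *Ndn* and *Zim1*. They were taken by gene symbol from the deposited FPKM table, in which all 9 were found among 22040 genes, and all 9 had a mean FPKM of at least 0.5 and were tested. RNA-seq was performed on limb buds of E11.5 mouse embryos, with 3 WT and 3 CKO libraries. CKO embryos carried *Prrx1-Cre* together with the floxed *Hnrnpk* alleles (*Prrx1-Cre;Hnrnpk* fl/fl), so that *Hnrnpk* was deleted in cells in which the *Prrx1* enhancer drives Cre, mainly limb bud mesenchyme, and not in the ectodermal ridge. The libraries labelled WT carry no other genotype detail in the labels, both sexes were used, and neither the labels nor the methods state which limbs, how many embryos or which litters make up 1 RNA-seq library. Samples of the other assays, of chromatin, were not used here.

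Genomic imprinting silences the copy of a gene that was inherited from one parent, according to DNA methylation laid down in the egg or the sperm. Imprinted genes lie in domains that share a control region, and many of them act on the growth of the embryo and placenta. Paternally expressed genes often favour growth and maternally expressed genes often restrain it, although not all follow this. Among the genes described here, *Cdkn1c*, *Zim1* and, outside the brain, *Grb10* are expressed from the maternal copy, and *Dlk1*, *Peg3*, *Peg10*, *Mest*, *Plagl1* and *Ndn* from the paternal copy. The FPKM of a gene, the fragments on it divided by its length and by the library's size, adds both copies together, so nothing here speaks of which copy was read.

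The control regions hold the methylated form of the 6 letters TGCCGC, to which the zinc finger protein ZFP57 binds to keep the methylation in the early embryo. These letters were searched on both strands (TGCCGC or GCGGCA) in the promoter windows of the RefSeq annotation on GRCm38.p6. The windows run from 250 bases before to 50 bases after a start site. Control regions as such were not searched, and whether any window lies in one was not examined. Windows were found for 7 of the 9 genes, and not for *Cdkn1c* and *Peg10*. At least 1 window of *Mest*, *Grb10*, *Plagl1* and *Zim1* held the letters, 4 of 7 genes, against 13.1% of all genes with a window. The windows with a match are shown with the matched letters in capitals, and the window of *Dlk1* beside them, because this gene showed the clearest difference between genotypes and holds no match. They are *Mest* at chr6:30737800-30738099 (plus strand), *Grb10* at chr11:12037371-12037670 (minus strand), *Plagl1* at chr10:13090582-13090881 (plus strand), *Zim1* at chr7:6696383-6696682 (minus strand) and *Dlk1* at chr12:109452573-109452872 (plus strand), each 5′ to 3′ along the gene:
*Mest*: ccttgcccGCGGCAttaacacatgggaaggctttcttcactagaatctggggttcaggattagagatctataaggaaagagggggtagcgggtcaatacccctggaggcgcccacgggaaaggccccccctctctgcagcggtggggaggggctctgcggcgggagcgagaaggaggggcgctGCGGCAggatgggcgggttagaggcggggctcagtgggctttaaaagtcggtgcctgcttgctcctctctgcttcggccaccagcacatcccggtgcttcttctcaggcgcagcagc
*Grb10*: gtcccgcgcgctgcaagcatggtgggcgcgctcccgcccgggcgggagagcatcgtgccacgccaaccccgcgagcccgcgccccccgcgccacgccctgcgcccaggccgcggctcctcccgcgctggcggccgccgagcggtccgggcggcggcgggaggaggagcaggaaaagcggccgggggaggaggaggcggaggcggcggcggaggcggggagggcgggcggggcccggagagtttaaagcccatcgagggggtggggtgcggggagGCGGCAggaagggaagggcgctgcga
*Plagl1*: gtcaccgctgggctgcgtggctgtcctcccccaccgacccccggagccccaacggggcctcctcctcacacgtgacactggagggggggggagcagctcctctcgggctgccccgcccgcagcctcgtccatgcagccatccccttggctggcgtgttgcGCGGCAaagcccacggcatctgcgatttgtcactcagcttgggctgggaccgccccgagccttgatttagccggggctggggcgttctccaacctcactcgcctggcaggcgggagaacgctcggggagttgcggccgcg
*Zim1*: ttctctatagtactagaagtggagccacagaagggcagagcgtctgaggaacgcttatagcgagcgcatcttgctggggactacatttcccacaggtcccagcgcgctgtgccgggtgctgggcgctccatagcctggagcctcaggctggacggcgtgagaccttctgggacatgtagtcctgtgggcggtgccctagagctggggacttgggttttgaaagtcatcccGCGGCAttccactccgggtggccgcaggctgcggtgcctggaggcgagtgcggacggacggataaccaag
*Dlk1*: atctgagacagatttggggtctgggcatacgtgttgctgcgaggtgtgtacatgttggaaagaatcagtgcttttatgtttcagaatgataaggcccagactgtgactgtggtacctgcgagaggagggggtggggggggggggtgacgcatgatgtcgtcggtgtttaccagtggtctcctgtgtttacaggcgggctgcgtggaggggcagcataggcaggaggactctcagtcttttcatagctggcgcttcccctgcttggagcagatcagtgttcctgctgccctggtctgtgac
Counted from the start site, with bases before it negative, the matches of *Mest* begin at -242 and -67, that of *Plagl1* at -90, that of *Zim1* at -20 and that of *Grb10* at 24. The *Grb10* window holds 45 CpG, the *Plagl1* window 26, the *Zim1* window 20, the *Mest* window 17 and the *Dlk1* window 9, where the median over all windows was 7 and the upper quartile 20. The windows of *Peg3* and *Ndn* hold no match, with 13 and 11 CpG. Further windows at other starts of *Mest* and *Grb10* hold none either, except a *Mest* window 3 bases away that overlaps the one shown. A match of letters describes the sequence and is no measure of binding or methylation in these limb buds.

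The reads worked back from the FPKM, over all genes matched to the annotation, numbered between 17140869 and 24624434 per library. The targeted gene *Hnrnpk*, which encodes an RNA- and DNA-binding protein, had a mean FPKM of 191 in WT and 135 in CKO, with every CKO value below every WT value. Its log2 fold change was -0.50. The limma adjusted *p* value was 0.334, or 0.0575 with the replicate number as a block, so *Hnrnpk* itself was not called at 0.05 in either model. The paper reported efficient loss of Hnrnpk in CKO limb buds by western blot and qPCR. Only part of the gene was flanked by *loxP* sites, while the FPKM covers all its exons, and the part of this in the values was not tested. The replicate 1 libraries of both groups were closer to each other than to any other library. The median absolute log2 difference over all tested genes was 0.14 between them, and 0.22 to 0.36 between either of them and the other 4 libraries. Among those 4 libraries it was 0.13 to 0.25, so these 2 ranges overlapped. The largest of these was between WT replicate 3 and CKO replicate 2. Globin transcripts, which come from red blood cells, took 13.7% and 11.7% of the summed FPKM in WT and CKO replicate 1, and 19.5% to 32.4% in the other libraries. All 7 markers of limb mesenchyme were above the filter on low values, and their summed FPKM was 293 to 312 in WT and 251 to 277 in CKO.

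No imprinted growth regulator gene differed between CKO and WT at an adjusted *p* value under 0.05 (limma on log2(FPKM + 0.1), adjusted over the 12305 tested genes). By the same rule 0.065% of all tested genes were called. The count was also 0 with the replicate number as a block, by which 2.81% of all tested genes were called and 1.68% were called lower in CKO, and with voom on worked-back reads. At an unadjusted *p* value under 0.05, 1 of the 9 passed, *Dlk1*, against 8.31% of all tested genes, and the same 1 passed with the block, against 18.4%. The median log2 fold change of the 9 genes was -0.024, with 7 below 0 and 2 above, and over all tested genes it was 0.0048, with 49.1% below 0. *Dlk1* was also the 1 gene of the 9 whose CKO and WT values did not overlap, where 14.5% of all tested genes had no overlap and 8.86% had none with CKO the lower.

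**Figure D1:**
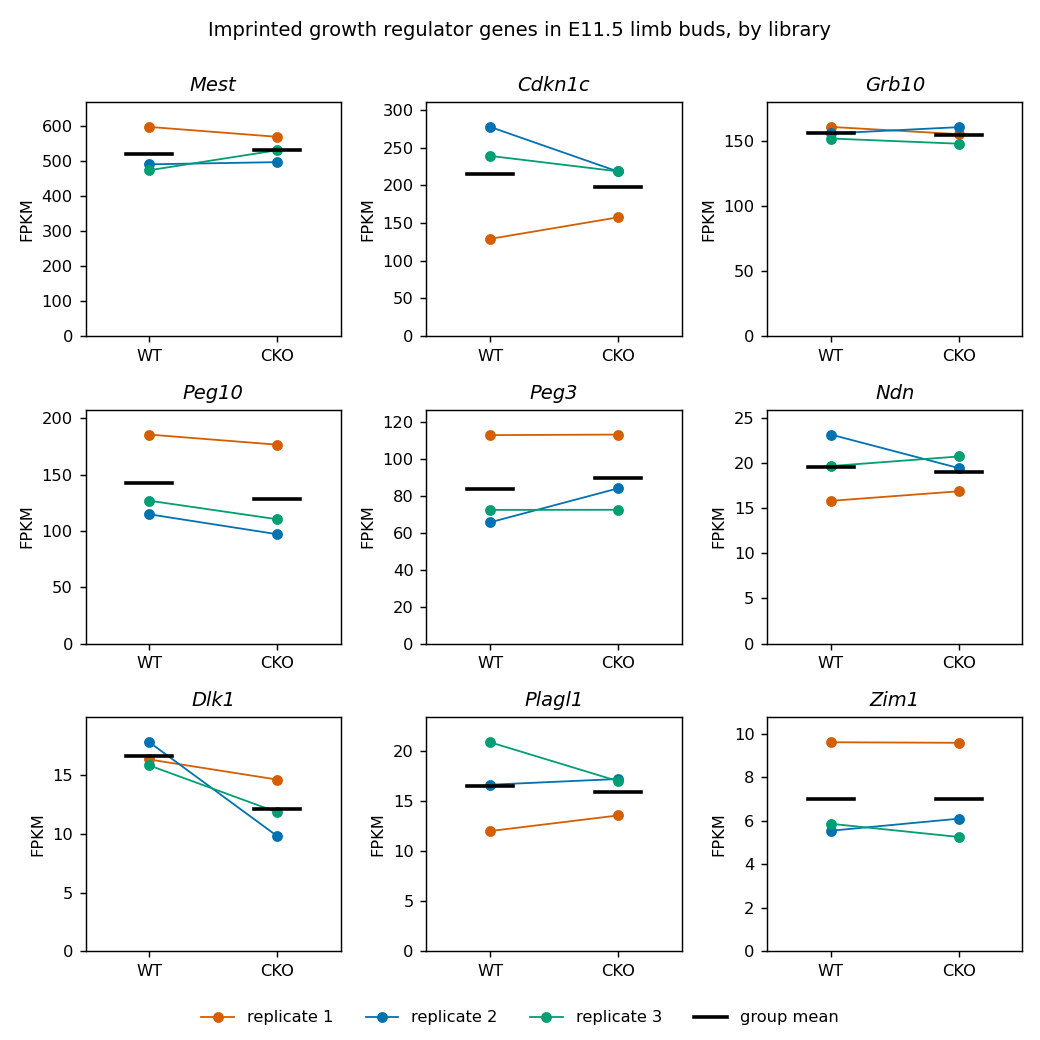
FPKM (vertical axes, from 0) of each of the 9 imprinted growth regulator genes in the 3 WT and 3 CKO libraries, with libraries of the same replicate number joined by a line and black bars at the group means. The lines of *Dlk1* all go down from WT to CKO, to between 9.81 and 14.6, while in *Peg10*, *Peg3* and *Zim1* the replicate 1 libraries lie well above the others in both groups and in *Cdkn1c* and *Plagl1* below them.

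*Dlk1* (ENSMUSG00000040856, chromosome 12 of GRCm38 from 109452823 to 109463336, plus strand) encodes a membrane protein with EGF-like repeats, related to the Notch ligands, that is abundant in embryonic mesenchyme and is known for holding back the differentiation of fat cell precursors. In WT replicates 1, 2 and 3 its FPKM was 16.3, 17.8 and 15.8, against 14.6, 9.81 and 11.8 in CKO. Every CKO library was thus below every WT library, by least for replicate 1. The means were 16.6 ± 1.02 in WT and 12.1 ± 2.41 in CKO (SD, n = 3 per group), a difference of -27.4% of the WT mean. The log2 fold change was -0.47 (SE, the standard error, 0.16, 95% interval -0.84 to -0.11), with a limma unadjusted *p* value of 0.0182 and an adjusted *p* value of 0.482. The gene therefore did not pass the threshold over all genes. An exact two-sided permutation test over the libraries gave *p* = 0.1, the smallest that 3 against 3 allows. Between libraries of the same number the log2 difference, CKO minus WT, was -0.16, -0.85 and -0.41 for numbers 1, 2 and 3. With the replicate number as a block the limma adjusted *p* value was 0.0695. With voom on the reads behind the FPKM and the same block it was 0.0239, past the threshold, as were 651 of all genes tested. Behind these values were 1664 to 2408 reads per WT library and 1063 to 1597 per CKO library.

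Marker lists of cell types are given beside the *Dlk1* values, and their part in the difference was not tested. In limma without the block none of their genes passed the adjusted threshold. With the block 1 did, a limb mesenchyme marker lower in CKO, where 2.81% of all tested genes were called. Of the limb mesenchyme markers, 6 of 7 had a log2 fold change below 0 (median -0.16), and the summed FPKM of the list did not overlap between groups. The 4 tested cartilage condensation markers, of 6 listed, were all below 0 (median -0.36), with sums of 78.1 to 116 in WT and 69.3 to 88.1 in CKO. All 7 endothelial markers were below 0 (median -0.32), with sums of 23.7 to 33.7 and 16.5 to 26.5. The 6 tested muscle precursor markers, of 7 listed, were all above 0 (median 0.48), with sums of 18.5 to 32.9 in WT and 31.0 to 39.1 in CKO. All 12 erythroid markers were above 0 as well (median 0.39), with sums of 37854 to 64060 in WT and 30882 to 143029 in CKO. The 3 tested markers of neural crest and Schwann precursors, of 6 listed, were above 0 (median 0.33, sums of 3.27 to 8.38 and 6.69 to 8.79), as were 6 of 7 macrophage markers (median 0.23, sums of 16.9 to 27.0 and 19.2 to 33.2) and 7 of 8 ectoderm markers (median 0.15, sums of 46.9 to 78.0 and 51.7 to 80.2). Of these 8 lists only limb mesenchyme had sums that did not overlap between groups. Taken singly, 2 of the 7 limb mesenchyme markers had every CKO value below every WT value, and 0 had the reverse. Over all tested genes 14.5% had no overlap in either direction. No marker of these lists was at 0 in all libraries. In whole limb buds, fewer cells of a type and less RNA per cell cannot be told apart.

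*Cdkn1c* (ENSMUSG00000037664, chromosome 7 from 143458339 to 143461050) encodes p57, an inhibitor of cyclin-dependent kinases of the Cip/Kip family that restrains division in the embryo. It had an FPKM of 129, 278 and 239 in WT replicates 1 to 3, and of 158, 219 and 219 in CKO replicates 1 to 3. The CKO values lay inside the WT range, and the lowest library of each group was replicate 1. The log2 fold change was -0.06 (SE 0.30, 95% interval -0.75 to 0.63, adjusted *p* = 0.973). With 3 libraries per group, true differences of any size within this interval were compatible with the values. The sign of the log2 fold change turned when 1 of 3 single libraries was left out, to 0.16 (WT replicate 2), 0.05 (WT replicate 3) and 0.095 (CKO replicate 1). The exons of *Cdkn1c* share 625 bases with an antisense transcript, and whether the counting used the strand is not stated. Of its Cip/Kip relatives, *Cdkn1a*, which encodes p21, rose from 5.54 ± 1.08 to 25.4 ± 3.51 (SD, n = 3 per group), a log2 fold change of 2.19 (adjusted *p* = 0.0101), a call that was lost when WT replicate 3 (0.117) or replicate 2 or 3 of CKO (0.0782 and 0.117) was left out. *Cdkn1b*, which encodes p27, had a log2 fold change of -0.09 (adjusted *p* = 0.890). The differences between these 3 genes in their response were not tested.

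*Grb10* (ENSMUSG00000020176, chromosome 11 from 11930508 to 12038683) encodes an adaptor that binds the insulin and IGF1 receptors and dampens their signal. Its FPKM was 161, 156 and 152 in WT and 156, 161 and 148 in CKO replicates 1 to 3, the narrowest spread of the 9 genes, with a standard deviation of 0.047 over the 6 libraries on the log2 scale. Neither genotype nor replicate number separated these libraries. CKO differed from WT by a log2 fold change of -0.02 (SE 0.12, 95% interval -0.30 to 0.27), and it was 0.0013 after median-ratio scaling. The receptor genes *Insr* and *Igf1r* and the substrates *Irs1* and *Irs2* had log2 fold changes of 0.02, 0.17, 0.18 and 0.06, none past the threshold (adjusted *p* from 0.810 to 0.987). The growth factor gene *Igf2*, itself imprinted, was at 50.7 ± 10.1 in the WT and 48.7 ± 14.9 in the CKO libraries (SD, n = 3 per group). Its log2 fold change was -0.08 (SE 0.24), and 3596 bases of its exons also belong to an overlapping annotated gene.

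*Mest* (ENSMUSG00000051855, chromosome 6 from 30723547 to 30748465) encodes an enzyme-like protein of the alpha/beta hydrolase fold that is strongly expressed in embryonic mesoderm. It had the highest FPKM of the 9 genes in each of the 6 libraries and ranked 49th in the table by its mean. Its FPKM was 599, 492 and 475 in WT and 570, 498 and 532 in CKO replicates 1 to 3. The groups overlapped, with replicate 1 highest in both. On the log2 scale the difference was 0.04 (SE 0.18, 95% interval -0.37 to 0.45), and it changed sign under quantile normalization (-0.16) and after the globin genes were taken out (-0.069). The exons of *Mest* share 912 bases with those of *Copg2* on the opposite strand.

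*Peg3* (ENSMUSG00000002265, chromosome 7 from 6703892 to 6730431) and *Zim1* (ENSMUSG00000002266, chromosome 7 from 6671269 to 6696450) encode zinc finger proteins of the same imprinted domain, lie 7441 bases apart on the minus strand, and are expressed from opposite parental copies. *Peg3* had an FPKM of 113, 65.7 and 72.4 in WT and 113, 84.1 and 72.5 in CKO replicates 1 to 3. *Zim1* had 9.61, 5.54 and 5.86 in the WT libraries and 9.59, 6.10 and 5.26 in CKO. In both genes the replicate 1 libraries of WT and CKO were close to each other and above the other 4. CKO minus WT on the log2 scale came to 0.12 for *Peg3* (SE 0.25, 95% interval -0.45 to 0.69) and -0.0077 for *Zim1* (SE 0.28, -0.65 to 0.64). *Peg10* (ENSMUSG00000092035, chromosome 6 from 4747306 to 4760517), which derives from a retrotransposon and is needed for the placenta, had an FPKM of 186, 115 and 127 in WT and 177, 97.1 and 110 in CKO replicates 1 to 3. It showed the same order of replicate numbers in both groups, and at each number the CKO library was the lower of the pair. The log2 differences by number were -0.07, -0.24 and -0.20, the log2 fold change was -0.17 (SE 0.27, 95% interval -0.80 to 0.46), and the limma adjusted *p* value was 0.908, or 0.492 with the replicate block. *Peg10* was thus not called in either model.

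*Plagl1* (ENSMUSG00000019817, chromosome 10 from 13060504 to 13131694) encodes the zinc finger transcription factor ZAC1, which can arrest the cell cycle and acts on other imprinted genes. *Ndn* (ENSMUSG00000033585, chromosome 7 from 62346569 to 62350262) encodes necdin, a MAGE family protein that binds E2F1 and is expressed in neurons and in muscle precursors. *Plagl1* had an FPKM of 12.0, 16.6 and 20.9 in WT and 13.6, 17.2 and 17.0 in CKO replicates 1 to 3. *Ndn* had 15.8, 23.1 and 19.6 in WT and 16.9, 19.4 and 20.7 in CKO. In both genes the replicate 1 libraries were the lowest and the groups overlapped. The log2 fold change was -0.024 for *Plagl1* (SE 0.21, 95% interval -0.51 to 0.46) and -0.03 for *Ndn* (SE 0.16, -0.41 to 0.35). The *E2f1* gene, whose product necdin binds, had a log2 fold change of -0.26 (adjusted *p* = 0.601), with every CKO value below every WT value. Over all tested genes 8.86% had no overlap with CKO the lower.

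**Figure D2:**
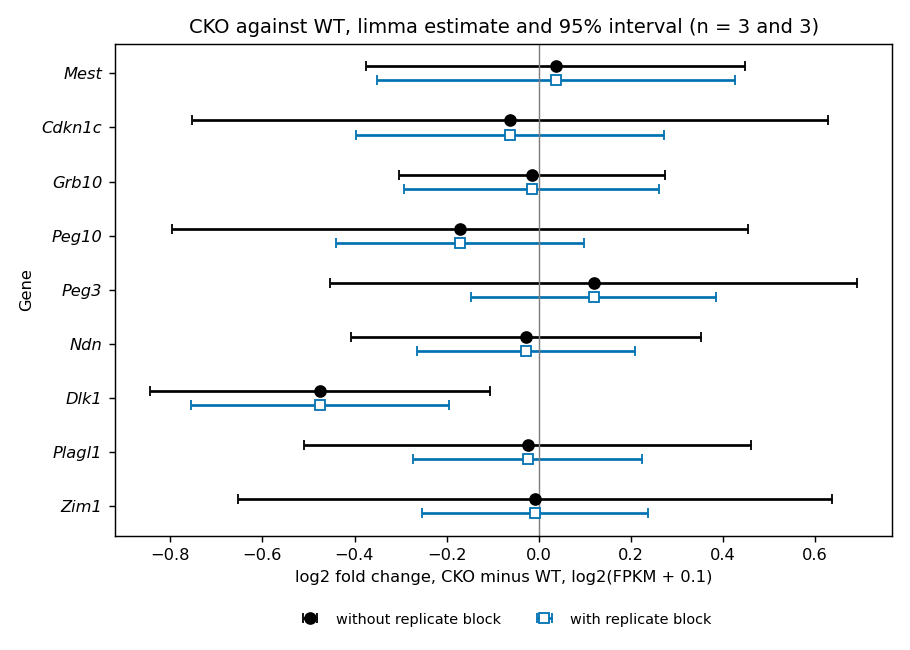
Log2 fold change of CKO against WT (horizontal axis) for each of the 9 genes (vertical axis), with its 95% interval from limma, without the replicate block (black circles) and with it (blue open squares), from 3 libraries per group. The intervals of *Dlk1* (-0.84 to -0.11, and -0.75 to -0.19 with the block) lie below 0 and those of the other 8 genes span it, before any adjustment for the number of genes tested.

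Levels per gene length put *Mest* first, with a mean FPKM of 527 over the 6 libraries. It was followed by *Cdkn1c* (207), *Grb10* (156), *Peg10* (135), *Peg3* (86.8), *Ndn* (19.3), *Plagl1* (16.2), *Dlk1* (14.4) and *Zim1* (6.99). The WT ranges of *Cdkn1c* and *Grb10*, of *Grb10* and *Peg10*, of *Ndn* and *Plagl1*, and of *Plagl1* and *Dlk1* overlapped, so the order within these pairs was not beyond the spread of the libraries. *Mest* was above *Cdkn1c*, *Peg10* above *Peg3*, *Peg3* above *Ndn* and *Dlk1* above *Zim1* in all 6 libraries. Among the tested genes *Peg3* lay at the 96.7th percentile by mean FPKM, the 4 above it higher still, and *Zim1* at the 49.6th.

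For most of these genes the difference by replicate number was larger than that by genotype. In 8 of the 9 genes the log2 difference between the replicate 1 libraries and the other 4 was larger in size than the log2 fold change between CKO and WT, which held for 66.4% of all tested genes. The exception was *Dlk1*. In 7 of the 9 genes both replicate 1 libraries lay outside the range of the other 4 libraries, which held for 47.9% of all tested genes. *Peg10*, *Peg3*, *Zim1* and *Mest* were above that range, with a mean FPKM in replicate 1 of 1.61, 1.53, 1.69 and 1.17 times that of replicates 2 and 3. *Cdkn1c*, *Plagl1* and *Ndn* were below it, at 0.601, 0.713 and 0.788 times. After the globin genes were taken out and the totals made equal, an alternative added after seeing the data, 5 genes were above the range (*Grb10* in addition) and 1, *Cdkn1c*, was below it, with 51.1% of all tested genes outside the range. The median log2 difference of replicate 1 from the others was -0.87 for the 12 erythroid markers, -0.85 for the 3 tested neural crest and Schwann precursor markers, -0.70 for the 7 macrophage markers, -0.38 for the 8 ectoderm markers, -0.27 for the 6 tested muscle precursor markers and -0.21 for the 7 endothelial markers, and it was 0.14 for limb mesenchyme and 0.017 for cartilage condensation. The part of these cell types in the replicate 1 values was not tested, and the labels do not state what a replicate number shares.

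**Figure D3:**
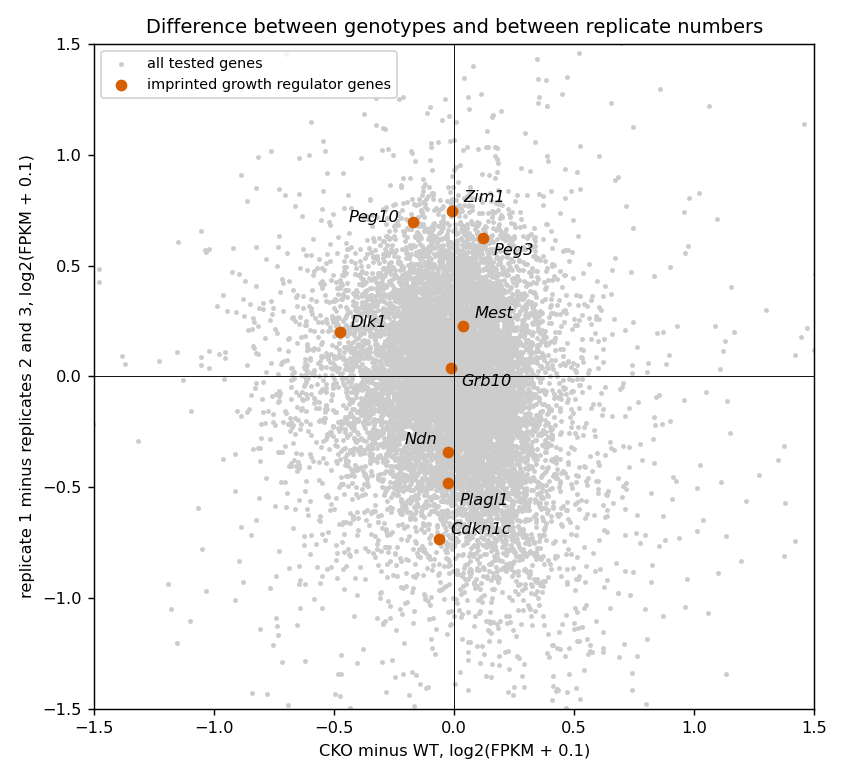
Each point is 1 tested gene, with the log2 difference of CKO from WT on the horizontal axis and that of the replicate 1 libraries from replicates 2 and 3 on the vertical axis, the 9 imprinted growth regulator genes in orange and all tested genes in grey (119 genes beyond 1.5 on either axis are not shown). *Zim1*, *Peg10* and *Peg3* lie between 0.62 and 0.75 on the vertical axis and *Cdkn1c* at -0.74, all close to 0 on the horizontal axis, and *Dlk1* lies at -0.47 on the horizontal axis.

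To see which genes shared the course of each imprinted gene over the 6 libraries, the log2 values of a gene were centred on their mean and compared by the root mean square (RMS) difference with 7430 tested genes of a mean FPKM of at least 5. The closest to *Dlk1* were *Gmppa* and *Dtx3*, at RMS differences of 0.036 and 0.055. The closest to *Zim1* were *Zfp608* and *Disp1* (0.014 and 0.020), to *Peg3* *Usp24* and *Fancm* (0.048 and 0.059) and to *Peg10* *E2f7* and *Tet3* (0.041 and 0.043). The closest to *Cdkn1c* were *Txndc15* and *Uchl1* (0.056 and 0.060), to *Ndn* *Aes* and *Maf1* (0.025 and 0.036) and to *Plagl1* *Thbs1* and *Zfp808* (0.076 and 0.079). *Mest* was closest to *Taf5l* and *2810004N23Rik* (0.024 and 0.025) and *Grb10* to *Lrrc20* and *Mfsd14a* (0.024 and 0.025), with little variation over the libraries. Within the imprinted growth regulator genes the closest pair was *Peg3* and *Zim1*, at 0.098, and *Zim1* was the 100th closest of all tested genes to *Peg3*. The most distant pair was *Cdkn1c* and *Zim1*, at 0.72. With 6 libraries, many genes follow any given course.

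The domains of these genes hold further imprinted genes and neighbours, and 61 genes that are imprinted in mouse or lie in imprinted domains were listed, of which 56 were in the table and 38 were tested. None passed the adjusted threshold, 5 had an unadjusted *p* value under 0.05 (limma; 1 higher and 4 lower in CKO, against 8.31% of all tested genes in either direction), and with the replicate block 2 passed the adjusted threshold, against 2.81% of all tested genes. The median log2 fold change was -0.04, with 21 below and 17 above 0. Of the 38, 4 had no overlap between groups with CKO the lower and 3 with CKO the higher. Over all tested genes 14.5% had no overlap in either direction. The 2 genes past the threshold with the block were *Begain*, in the domain of *Dlk1*, and *Phlda2*, in that of *Cdkn1c*.

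*Begain*, which lies 384.6 kb from *Dlk1* and encodes a protein known from synapses, had an FPKM of 1.15, 1.77 and 1.49 in WT and 0.539, 0.249 and 0.428 in CKO replicates 1 to 3. Every CKO value was less than the lowest WT value. On the log2 scale the difference was -1.66 (SE 0.28, adjusted *p* = 0.166 without and 0.0073 with the block), on 91 to 187 reads in WT and 21 to 45 in CKO. As with *Dlk1*, the difference by number was smallest for number 1 (-0.96) and largest for number 2 (-2.42), with -1.59 for number 3. The other listed genes of the domain, *Rtl1* and *Dio3*, were under the filter, with 53 to 78 and 5 to 15 reads in WT and 46 to 76 and 3 to 14 in CKO, and their values overlapped between groups.

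*Phlda2*, a maternally expressed gene that restrains growth of the placenta, lies 40.5 kb from *Cdkn1c*. It had an FPKM of 0.445, 0.932 and 0.982 in WT and 1.38, 1.77 and 2.21 in CKO replicates 1 to 3, so that the lowest CKO value was above the highest WT value. The log2 fold change was 1.13 (SE 0.31, adjusted *p* = 0.366 without and 0.0089 with the block), on 9 to 25 reads in WT and 28 to 59 in CKO. *Trpm5* of the same domain, an ion channel gene, had no overlap either, with a log2 fold change of 0.51 (adjusted *p* = 0.620). The other tested genes of the domain had values between -0.18 for *Osbpl5* and 0.19 for *Tspan32*, with *Tssc4*, *Nap1l4* and *Cd81* in between, and each of these 5 overlapped between groups. Under the filter were *Kcnq1*, whose values overlapped, *Slc22a18* and *Ascl2*. *Slc22a18*, 12.7 kb from *Cdkn1c*, had every CKO FPKM below every WT FPKM, on 6 to 21 reads in WT and 1 to 7 in CKO. *Ascl2* had every CKO FPKM above every WT FPKM, on 4 to 10 reads in WT and 8 to 15 in CKO.

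The 2 genes that start next to a growth regulator gene on the other strand overlapped between groups. *Usp29*, which starts 146 bases from *Peg3* on the other strand, was at 3.39 ± 0.68 in the WT and 3.39 ± 0.297 in the CKO libraries (SD, n = 3 per group). *Sgce*, a sarcoglycan gene 98 bases from *Peg10* on the other strand, had a log2 fold change of 0.12 (SE 0.15). Of the other tested genes around *Peg10*, *Casd1* had the 1 unadjusted *p* value under 0.05, with a log2 fold change of -0.41 (SE 0.16, adjusted *p* = 0.555) and every CKO value below every WT value. *Ppp1r9a* had -0.49 (adjusted *p* = 0.635). With the replicate block the adjusted *p* values of *Casd1* and *Ppp1r9a* were 0.0790 and 0.0530 in limma. They were 0.0340 and 0.0123, past the threshold, with voom on worked-back reads and the block, by which 651 of all tested genes passed. *Pon3* had -0.23, *Pon2* 0.21 and *Asb4* -0.01. *Copg2* beside *Mest* had -0.04 and *Ddc*, the aromatic amino acid decarboxylase gene beside *Grb10*, -0.05. Around *Ndn*, *Magel2*, its MAGE family neighbour, had -0.66 (SE 0.32, adjusted *p* = 0.654 without and 0.0671 with the block, or 0.0383 with voom and the block), *Atp10a* -0.41, *Peg12* -0.06, *Mkrn3* -0.03, *Snrpn* 0.26 and *Ube3a* 0.28. Of these 6, only *Ube3a*, a ubiquitin ligase gene, had no overlap between groups, with CKO the higher. *Snurf* was listed at 0 in all libraries, and its exons lie within those of *Snrpn*. Outside these domains the lowest log2 fold change was that of *Nap1l5*, with 1.16 ± 0.108 in WT and 0.613 ± 0.124 in CKO (SD, n = 3 per group), a log2 fold change of -0.83 (adjusted *p* = 0.328). *Nnat* was at 343 ± 62.0 in WT and 241 ± 26.6 in CKO (log2 fold change -0.50, limma adjusted *p* = 0.550). In these 2 of the 15 tested genes outside the domains every CKO value was below every WT value. Of the 15, 8 had a log2 fold change below 0 and 7 above.

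**Figure D4:**
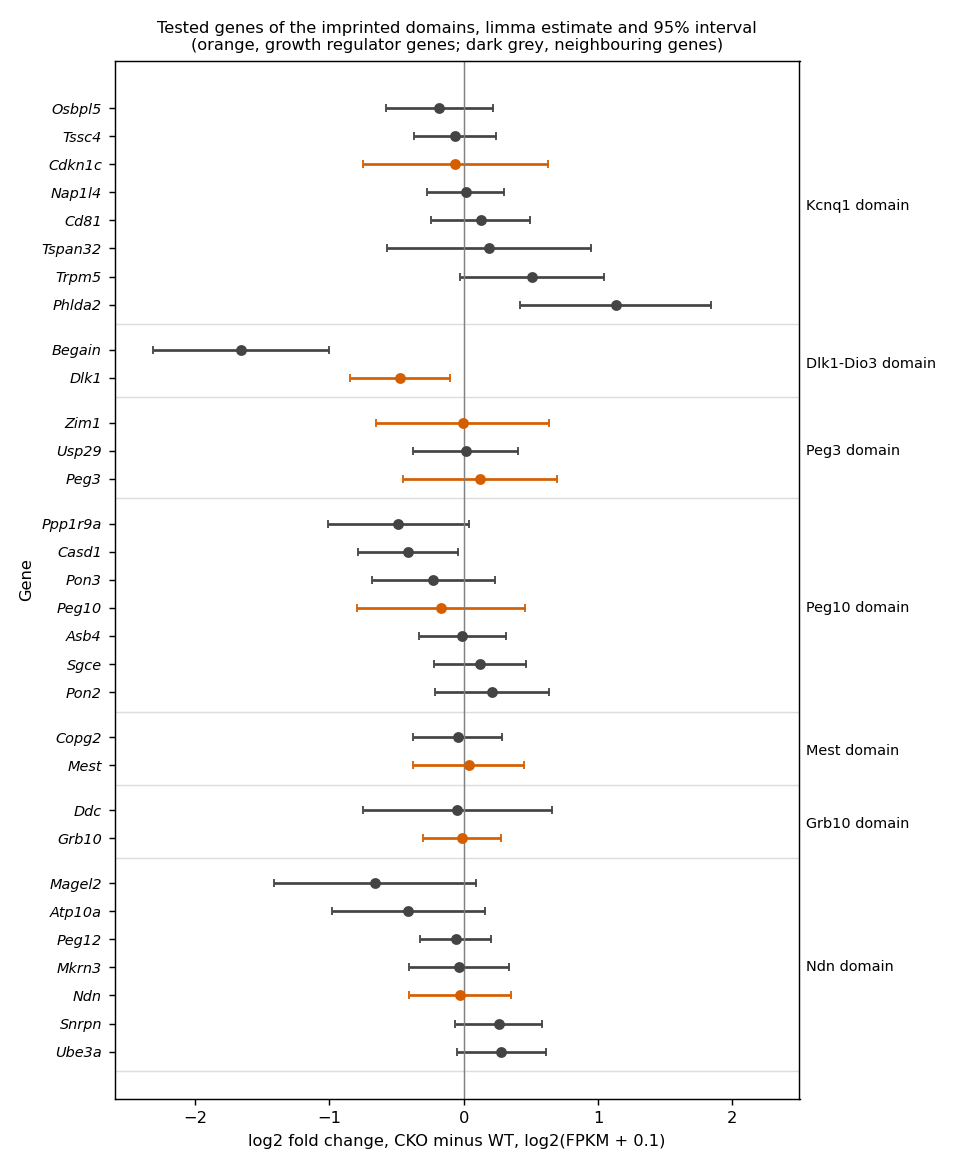
Log2 fold change of CKO against WT (horizontal axis) with its 95% interval from limma without the block, for the tested genes of the 7 imprinted domains (vertical axis), the growth regulator genes in orange and their neighbours in dark grey, 3 libraries per group. *Begain* (-1.66) and *Dlk1* (-0.47) lie below 0 in the Dlk1-Dio3 domain and *Phlda2* (1.13) above 0 in the Kcnq1 domain, and none of them passed the adjusted threshold in this model.

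Genes whose products act with the imprinted growth regulators or keep imprints were taken as a further list of 31, of which 29 were tested, 14 below and 15 above 0 with a median log2 fold change of 0.0087. Of the 29, 3 had no overlap between groups with CKO the lower and 1 with CKO the higher, against 14.5% of all tested genes in either direction. *Cdkn1a* was the 1 gene past the adjusted threshold, with or without the block. *Zfp57*, which encodes the protein that binds TGCCGC, had an FPKM of 16.3, 18.1 and 17.3 in WT and 14.2, 11.02 and 12.4 in CKO replicates 1 to 3. Every CKO value was below every WT value, with a log2 fold change of -0.46 (SE 0.13, adjusted *p* = 0.377 without and 0.0547 with the block). The other genes of this machinery, *Trim28* and *Zfp445*, had log2 fold changes of -0.02 and 0.19 and overlapped between groups. Among the genes of the Notch pathway to which DLK1 is related, *Notch1*, *Notch2*, *Notch3*, *Jag1* and *Dll1* had 0.16, -0.02, -0.39, 0.35 and 0.0087, none past the threshold (adjusted *p* from 0.600 to 0.995). With voom and the block, by which 651 of all tested genes passed, *Notch3* (adjusted *p* = 0.0471) and *Zfp57* (0.0217) passed it. The second highest log2 fold change of the list was that of *Grb7*, whose product is an adaptor related to GRB10, at 0.36 (adjusted *p* = 0.734).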

How the data were processed

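The deposited table holds FPKM that the authors made from stranded mRNA libraries, 1 column per library. Per the labels, the submitters' processing notes name cutadapt 2.5, HISAT2 2.1.0 and featureCounts 1.6.3 among the tools and mm10 as the build. Identifiers were matched to GENCODE M21 on GRCm38 (99.5% of 22040). Reads were worked back from FPKM times merged exon length, which gave whole reads within 0.1 for 92.6% of the matched genes and for all 9 members. In CKO replicates 2 and 3 the summed reads were 1.11 and 1.03 times the library size inferred from the same FPKM. In the other libraries they were 0.947 to 0.968 times that size. Voom used these reads and library sizes, and the effect of this mismatch on its calls was not tested.

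The members and lists were chosen with earlier results of these data known. CKO was compared with WT by limma 3.58.1 (R 4.3.3) with a trended prior variance on log2(FPKM + 0.1), for genes whose mean FPKM reached 0.5, with Benjamini-Hochberg adjustment over all of them. The pseudocount of 0.1 understates changes of low genes. Single genes were also compared by an exact permutation test over libraries. Alternatives were other pseudocounts and filters, median-ratio and quantile scaling, removal of globin genes, no trend, voom on worked-back reads, the replicate block, replicates 2 and 3 alone and each library left out. Genes named are the members, tested genes of their domains, list genes past the threshold with or without the block or with the 2 largest rises or falls, and the 2 genes closest in course. *E2f1*, *Cdkn1b*, *Igf2*, *Insr*, *Igf1r*, *Irs1*, *Irs2*, *Trim28*, *Zfp445*, *Snurf*, *Rtl1*, *Dio3* and the Notch genes were named from the lists after their values were seen. The same holds for *Kcnq1*, *Slc22a18*, *Ascl2* and *Nnat*, and *Nnat* was not followed over the alternatives.

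The replicate numbers in the labels are shared by the groups. Deviations from the group means correlated across genes by 0.64, 0.44 and 0.27 for numbers 1, 2 and 3. Each exceeded the limit of 0.1, and libraries of equal number were treated as pairs in the replicate block. WT replicate 2 correlated more with CKO replicate 3 (0.49) than with CKO replicate 2. WT replicate 3 correlated more with CKO replicate 2 (0.31) than with CKO replicate 3. Deviations cancel out within a group, so a shift of both replicate 1 libraries alone would raise the values for numbers 2 and 3. The correlations therefore cannot decide whether numbers 2 and 3 pair the libraries. Every result with the block rests on that pairing. The limma *p* values weigh the difference between groups against the variation between libraries, moderated over all genes. With the block they weigh it against the variation left after the replicate numbers.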

Additional observations from a re-analysis of the deposited data

How the results depend on the processing

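The number of genes past the adjusted threshold, 8 over all tested genes, was 14 under quantile normalization, 4 after the globin genes were taken out and totals equalised, 346 with the replicate block, 651 with voom on worked-back reads and the replicate block, 1851 in replicates 2 and 3 alone, and 1 to 23 with 1 library left out. For the 9 imprinted growth regulator genes the count of 0 became 1, *Dlk1*, with voom and the replicate block and in replicates 2 and 3 alone. It stayed 0 in the other settings, with 0 to 1 genes at an unadjusted *p* value under 0.05. In replicates 2 and 3 alone, with 2 libraries per group, the log2 fold change of *Dlk1* was -0.63 (limma adjusted *p* = 8.9e-04). That setting leaves out number 1, at which *Dlk1* differed least (-0.16). For the 38 tested other imprinted genes the count was 2 with the replicate block, 7 with voom and the block and 11 in replicates 2 and 3 alone. Over all tested genes, 12305 in the main fit, the counts in these settings were 346 (2.81%), 651 and 1851. For the 29 tested partner genes it was 3 in the last 2 of these settings. With 1 library left out it was 0 to 1 for them (0 when replicate 3 of WT or replicate 2 or 3 of CKO was left out). In limma the replicate block changed no call named in the text apart from *Begain* and *Phlda2*. With voom and the block, *Dlk1*, *Hnrnpk*, *Ppp1r9a*, *Casd1*, *Magel2*, *Zfp57* and *Notch3* passed as well (adjusted *p* from 0.0123 to 0.0471), and in replicates 2 and 3 alone so did these genes except *Casd1*, and *Nap1l5*, *Tspan32* and *Snrpn* in addition (adjusted *p* from 2.1e-04 to 0.0442). The median log2 fold change of the 9 genes was -0.137 under quantile normalization and -0.130 without globin genes, which moves the median of all genes to -0.10, and it lay between -0.075 and 0.0062 with 1 library left out. Signs changed under quantile normalization for *Mest* (-0.16), *Zim1* (0.011), *Nap1l4* (-0.090), *Ddc* (0.016) and *Mkrn3* (0.026), without globin genes for *Mest* (-0.069), *Nap1l4* (-0.093) and *Usp29* (-0.090), under median-ratio scaling for *Grb10* (0.0013), *Zim1* (0.0085) and *Asb4* (0.0055), with voom and the block for *Ddc* (0.0017), and in replicates 2 and 3 alone for *Grb10* (0.0028), *Asb4* (0.11) and *Ddc* (0.13). With 1 library left out, the log2 fold change ran from -0.39 to 0.16 for *Cdkn1c*, -0.059 to 0.36 for *Peg3*, -0.43 to 0.036 for *Peg10*, -0.027 to 0.14 for *Mest*, -0.043 to 0.016 for *Grb10*, -0.23 to 0.16 for *Plagl1*, -0.17 to 0.10 for *Ndn* and -0.26 to 0.24 for *Zim1*, so none of these 8 kept a direction, while *Dlk1* stayed between -0.62 and -0.34. It also crossed 0 for *Cd81* (-0.0075 to 0.22), *Tssc4* (-0.12 to 0.029), *Nap1l4* (-0.030 to 0.076), *Tspan32* (-0.12 to 0.56), *Usp29* (-0.081 to 0.17), *Asb4* (-0.065 to 0.074), *Copg2* (-0.13 to 0.0092), *Ddc* (-0.26 to 0.28) and *Igf2* (-0.32 to 0.10). The cause of these changes was not tested. With 3 libraries per group and replicate 1 apart, the 95% intervals without the block were as narrow as -0.30 to 0.27 (*Grb10*). They were as wide as -0.75 to 0.63 (*Cdkn1c*). True differences of any size within a gene's interval were compatible with its values.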
